A study of Mus musculus with 18 samples.

Results

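The collagen genes were taken as the 44 rows of the deposited count table, of 55536 rows in all, whose gene symbol reads Col, a number, a and a number. They were followed in 18 RNA-seq libraries of immortalised mouse embryonic fibroblasts. A p65 knock-out line (p65 KO), an IKK2 knock-out line (IKK2 KO, also called IKK beta) and a wild-type line (WT) were each sampled untreated and after 45 and 90 min in 10 ng/ml of TNF, which gave 9 groups of 2 libraries. Rela encodes p65, an activating subunit of NF-κB. Ikbkb encodes IKK2, the kinase that marks the inhibitors of NF-κB for destruction when TNF binds its receptor. Every line was immortalised, and the labels give neither the means of immortalisation, nor the mouse strain, nor whether a line is a clone, so a knocked-out gene and any other difference between lines cannot be told apart. The labels do not say that the 2 libraries of a group, named a and b here, came from separate cultures, so p-values measure the spread between these libraries, which may be technical.

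Collagens are triple-helical matrix proteins built from chains that are each the product of a gene of their own. Fibrillar collagens (types I, II, III, V and XI) form the cross-banded fibres of connective tissue, in which type V and XI chains set fibril width. Type IV chains form the sheet of basement membranes, type VIII and X form hexagonal networks, type VI forms beaded filaments around cells, and FACIT collagens such as type XII sit on fibril surfaces. Fibroblasts are the main producers of types I, III, V and VI, whereas type II is best known from cartilage.

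Promoter windows of 5 members whose levels differed widely between lines or changed with TNF are shown first, as the 250 bases before the RefSeq start in build GRCm38.p6. Col3a1, chr1:45311288-45311537 on the plus strand, and Col6a3, chr1:90843972-90844221 on the minus strand, are shown because p65 KO held far less of them than WT. Col7a1, chr9:108953336-108953585 on the plus strand, is shown for its rise in IKK2 KO, and Col4a6, chrX:141474077-141474326 on the minus strand, for its presence in p65 KO. Col8a1, chr16:57754738-57754987 on the minus strand, is shown because it was called on TNF in each line. The letters run 5′ to 3′ on the strand of the gene, and capitals mark matches of 4 motifs on either strand, with overlapping matches counted each. The GC box was searched as GGGCGG. The box bound by NF-Y was searched as CCAAT, and the TATA box as TATAAA. The κB motif is the element that NF-κB dimers bind.
Col3a1: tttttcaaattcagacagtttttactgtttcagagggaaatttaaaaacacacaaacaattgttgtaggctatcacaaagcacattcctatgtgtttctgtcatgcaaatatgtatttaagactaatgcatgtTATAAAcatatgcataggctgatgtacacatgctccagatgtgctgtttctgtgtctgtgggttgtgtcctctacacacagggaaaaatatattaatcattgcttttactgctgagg
Col6a3: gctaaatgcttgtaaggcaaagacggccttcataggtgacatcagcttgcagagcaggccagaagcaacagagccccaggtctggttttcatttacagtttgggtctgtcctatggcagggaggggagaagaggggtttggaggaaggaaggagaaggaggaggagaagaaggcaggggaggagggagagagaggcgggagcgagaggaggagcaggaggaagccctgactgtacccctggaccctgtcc
Col7a1: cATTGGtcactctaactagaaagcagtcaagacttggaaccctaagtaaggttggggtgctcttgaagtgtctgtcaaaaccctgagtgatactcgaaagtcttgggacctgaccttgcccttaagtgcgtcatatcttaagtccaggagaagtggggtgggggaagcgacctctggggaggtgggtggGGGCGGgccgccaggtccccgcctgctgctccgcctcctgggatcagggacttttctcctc
Col4a6: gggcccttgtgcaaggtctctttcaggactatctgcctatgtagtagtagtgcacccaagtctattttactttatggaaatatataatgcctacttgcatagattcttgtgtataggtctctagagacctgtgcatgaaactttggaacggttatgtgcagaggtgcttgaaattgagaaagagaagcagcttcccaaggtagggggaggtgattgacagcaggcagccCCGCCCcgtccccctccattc
Col8a1: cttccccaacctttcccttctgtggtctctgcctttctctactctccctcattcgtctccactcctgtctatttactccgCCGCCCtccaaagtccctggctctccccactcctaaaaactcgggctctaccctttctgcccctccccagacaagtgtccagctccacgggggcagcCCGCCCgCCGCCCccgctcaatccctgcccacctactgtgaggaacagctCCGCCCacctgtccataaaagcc
The Col3a1 window holds a TATA box, and the Col6a3 window holds none of the 4 motifs. Col7a1 has 1 GC box and 1 CCAAT box, Col4a6 has 1 GC box, and Col8a1 has 4 GC boxes. RefSeq windows were found for 35 members, 38 windows in all. A GC box was in 22 of them (57.9%, against 32.7% of all 32851 windows), a CCAAT box in 13 (34.2% against 33.8%) and a TATA box in 5 (13.2% against 12.4%). The κB motif was in the windows of Col27a1, Col6a4, Col9a1 and Col9a2 (10.5% of member windows against 3.9% of all) and in none of the 5 shown. These are matches of letters within the windows.

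The libraries held 16707931 to 23469006 counts, and the collagen genes took 0.284% to 0.588% of them. Rela, the deleted gene of the p65 line, was at 5.25 and 6.11 counts per 1000000 (CPM, scaled by TMM) in untreated p65 KO against 63.2 and 64.4 CPM in untreated WT. Ikbkb was at 43.7 and 43.1 CPM in untreated IKK2 KO against 59.3 and 60.4 CPM in untreated WT; the deleted part is not given in the sources used here, so this level checks nothing. All 10 fibroblast markers had counts in untreated p65 KO and IKK2 KO, and 9 of 10 had them in untreated WT, where Thy1 was at 0; their summed level was 2930 to 2940 CPM in p65 KO cells, 5520 to 5570 CPM in IKK2 KO and 3840 to 3920 CPM in WT. Summed epithelial, endothelial, myeloid and adipocyte markers stayed at or under 2.74 CPM in each untreated library. The summed osteoblast markers (125 to 127 CPM in p65 KO cells, 143 to 149 CPM in IKK2 KO, 95.1 to 97.0 CPM in WT), smooth muscle markers (182 to 192, 137 to 144 and 675 to 726 CPM) and neural markers (39.9 to 44.2, 2.23 to 2.85 and 29.2 to 29.4 CPM, with Sox10 at 0 in each line) differed between lines, and their part in the results was not tested. The mitochondrial share of counts was 11.3% and 11.6% in untreated p65 KO, 7.98% to 9.65% in TNF-treated p65 KO, 6.41% to 7.90% in IKK2 KO and 6.63% to 7.70% in WT.

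Of the 44 members, 28 passed the filter on low counts and were tested; a member can pass through the one line where it is high, so counts over the tested members do not stand for the family. Of the other 16, Col9a2, Col13a1 and Col26a1 had a rounded count of 0 in every library. The remaining 13 (Col6a4, Col6a5, Col6a6, Col8a2, Col9a1, Col14a1, Col15a1, Col19a1, Col22a1, Col23a1, Col24a1, Col25a1 and Col28a1) reached at most 21 counts in a library. Among them Col8a2, a partner chain of type VIII, had 0 counts in untreated p65 KO and 0 in untreated IKK2 KO against 30 in untreated WT. On a floor of 3 counts per group it was at least 10.4-fold lower in p65 KO and at least 7.64-fold lower in IKK2 KO, with counting error only in view.

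The untreated lines made different sets of collagen transcripts. In p65 KO 27 of the 28 tested members differed from WT, 6 of them higher and 21 lower, where 80.8% of all 16322 tested genes differed (39.8% higher and 41.1% lower). In IKK2 KO 25 differed from WT, 9 higher and 16 lower, where 74.3% of all genes differed (35.9% higher and 38.4% lower). IKK2 KO against p65 KO gave 21 calls, 15 higher and 6 lower, where 72.4% of all genes differed (35.5% higher and 36.9% lower). As shares of the tested members these calls were 96.4%, 89.3% and 75.0%, the last close to its background, so the sizes and patterns are described here in place of the counts. The median log2 change of the tested members was −1.35 in p65 KO and −0.61 in IKK2 KO, against −0.02 and −0.03 over all tested genes. A change of at least 2-fold with a call was seen for 19 members in p65 KO (35.2% of all genes) and 18 in IKK2 KO (27.6% of all genes).

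In all, 15 members were lower than WT in both knock-out lines and 3 (Col4a1, Col4a2 and Col16a1) were higher in both. Another 6 (Col1a1, Col1a2, Col3a1, Col5a3, Col6a2 and Col7a1) were lower in p65 KO and higher in IKK2 KO, and Col4a6 was the reverse. Col4a5 and Col27a1 differed from WT in p65 KO only by call, which is no test of a difference between the knock-outs; IKK2 KO was below p65 KO for each (Col4a5 log2 −0.40 ± 0.05, SE; Col27a1 −2.82 ± 0.37). Col17a1, a transmembrane collagen of epithelial anchoring plaques, was called in no pair of lines. Its highest group mean was 0.480 CPM, with at most 12 counts in a library, so a difference could be missed. All counts come from edgeR's quasi-likelihood test at a Benjamini-Hochberg adjusted p of 0.05. Bulk RNA cannot tell fewer cells that make a transcript from less transcript per cell.

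**Figure D1:**
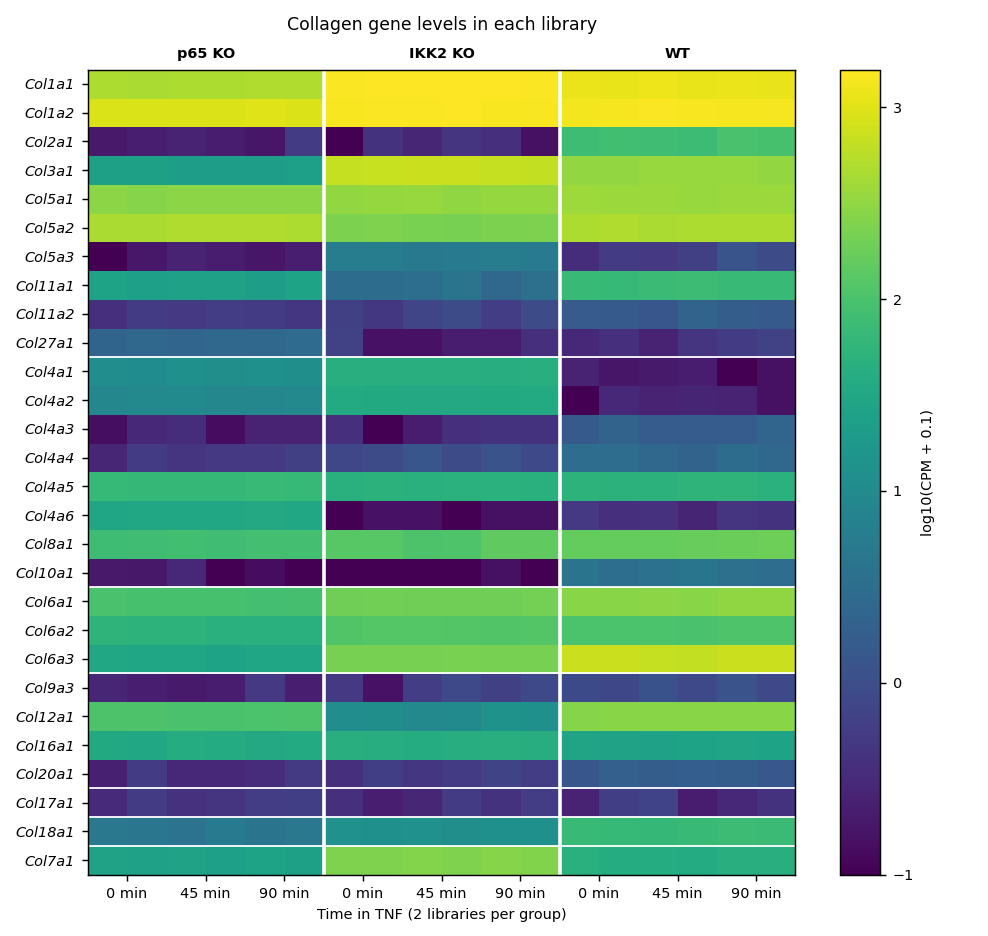
Levels of the 28 tested collagen genes, in rows by class, in each of 18 libraries, in columns by line (p65 KO, IKK2 KO, WT) and time in TNF. Colour is log10 of CPM plus 0.1; the rows change mostly between the 3 blocks of columns and little within a block, and Col2a1, Col4a1, Col4a6 and Col12a1 show wide steps between lines.

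**Figure D2:**
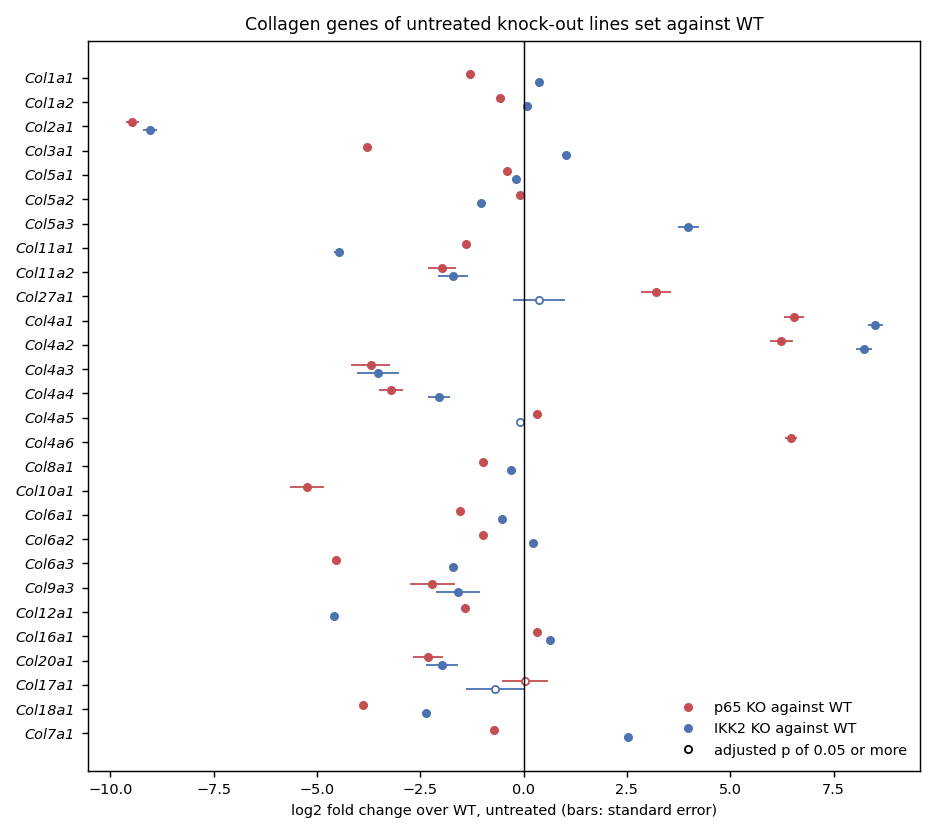
Log2 fold change of tested collagen genes in untreated p65 KO (red) and untreated IKK2 KO (blue) over untreated WT. Points are fitted values, bars are standard errors and open points have an adjusted p of 0.05 or more. The bars come from the F statistic and are too short for many large changes and for genes with few counts in a group. Genes with 3 counts or fewer in a group (Col5a3 in p65 KO, Col4a6 and Col10a1 in IKK2 KO) are not drawn for that line, which leaves 27 red and 26 blue points; Col3a1 and Col7a1 lie on opposite sides of 0 in the 2 lines.

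Among the fibrillar collagens, 10 of 11 were tested; p65 KO was lower for 9 and higher for 1 (41.1% and 39.8% of all genes), and IKK2 KO was lower for 5 and higher for 4 (38.4% and 35.9%). Type I collagen, the bulk of fibroblast collagen, was the most abundant in each line. Col1a1 (chr11:94936224-94953042, plus strand) stood at 477 and 463 CPM in p65 KO cells, 1457 and 1569.6 CPM in IKK2 KO, and 1172 and 1153 CPM in WT. Its partner Col1a2 (chr6:4504814-4541544, plus strand) stood at 920.1 and 920.25 CPM in p65 KO cells, 1411 and 1489.8 CPM in IKK2 KO, and 1349 and 1390.1 CPM in WT. Libraries of different lines did not overlap for either gene; gene positions are in build GRCm38. In p65 KO Col1a1 was lower by more than Col1a2 (edgeR log2 −1.31 ± 0.03 and −0.57 ± 0.03, SE; adjusted p = 6.2e-35 and 1.9e-23), and in IKK2 KO Col1a1 was higher (0.38 ± 0.03, adjusted p = 4.2e-16). The rise of Col1a2 in IKK2 KO was small (0.08 ± 0.03, adjusted p = 0.0043) and lost its call without WT library a (0.06, adjusted p = 0.078) or without IKK2 KO library b (0.05, adjusted p = 0.2).

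Col3a1 (chr1:45311538-45349706, plus strand), the type III chain that mixes with type I in elastic tissues, ranged further between lines than the type I genes. It had 23.8 and 23.9 CPM in p65 KO cells, 659.8 and 693 CPM in IKK2 KO, and 330.5 and 334 CPM in WT. IKK2 KO thus had the highest level, WT the middle and p65 KO by far the lowest, with no overlap. The log2 change was −3.80 ± 0.04 for p65 KO (adjusted p = 5.8e-47), that for IKK2 KO was 1.03 ± 0.03 (adjusted p = 1.1e-31), and IKK2 KO exceeded p65 KO by 4.82 ± 0.04. Its neighbour Col5a2, which lies tail to tail with it at a distance of 24.6 kb on chromosome 1, followed another order. Col5a2 had 461 and 457 CPM in p65 KO cells, 238 and 243 CPM in IKK2 KO, and 482 and 493 CPM in WT. The lowest line for Col5a2 was IKK2 KO (−1.02 ± 0.03, adjusted p = 2.1e-32), while p65 KO was close to WT (−0.09 ± 0.02, adjusted p = 0.0012; without the filter on low counts −0.06, adjusted p = 0.068).

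Col5a1, the major type V chain, differed little: 295 and 272 CPM in p65 KO cells, 322 and 336 CPM in IKK2 KO, and 379.8 and 369 CPM in WT. It was lower in p65 KO cells (log2 −0.40 ± 0.03, adjusted p = 9.4e-14) and in IKK2 KO cells (−0.19 ± 0.03, adjusted p = 7.3e-06). Col5a3, the minor type V chain, was highest in IKK2 KO, with 0 and 0.0831 CPM in p65 KO cells, 5.99 and 5.70 CPM in IKK2 KO, and 0.254 and 0.451 CPM in WT. IKK2 KO was 15.9-fold above WT (3.99 ± 0.25 on the log2 scale, adjusted p = 1.7e-18). The p65 KO libraries held 2 counts against 16 in WT, a ratio of 8.34 in favour of WT with an exact 95% counting interval of 1.96 to 74.8.

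Col2a1, Col11a1 and Col11a2, the chains of cartilage fibrils, were highest in WT. Col2a1 (chr15:97975602-98004695, minus strand), the type II chain, had 0.0913 and 0.125 CPM in p65 KO cells, 0 and 0.310 CPM in IKK2 KO, and 78.6 and 83.5 CPM in WT. Both knock-outs lay far below WT (−9.47 ± 0.17 on the log2 scale for p65 KO, −9.04 ± 0.18 for IKK2 KO, adjusted p = 1.1e-38 and 7.8e-37) and did not differ from each other by call (0.43 ± 0.99, adjusted p = 0.71). The errors against WT are too small, since they come from the F statistic and each knock-out was near 0 CPM. Col11a1, a type XI chain that pairs with type II in cartilage and with type V elsewhere, had 26.8 and 23.7 CPM in p65 KO cells, 2.96 and 2.97 CPM in IKK2 KO, and 66.7 and 65.8 CPM in WT. Here IKK2 KO was the lowest line, by log2 −4.48 ± 0.10 (adjusted p = 2.1e-34), and p65 KO lay between (−1.39 ± 0.06, adjusted p = 8.6e-25). Col11a2 stayed at or under 1.52 CPM in each untreated library and was lower in p65 KO (−1.98 ± 0.35) and IKK2 KO (−1.71 ± 0.36). Of the 6 chondrocyte markers, Acan, Matn1 and Hapln1 were at 0 in untreated WT, and the summed level of the list was 25.0 to 26.6 CPM in p65 KO cells, 49.9 to 52.8 CPM in IKK2 KO and 15.0 to 15.2 CPM in WT. Sox9, the cartilage transcription factor that activates Col2a1, was at 10.6 and 10.4 CPM in p65 KO cells, 49.6 and 52.2 CPM in IKK2 KO, and 14.9 and 14.5 CPM in WT. Most of the sum in IKK2 KO and WT was Sox9, while Comp, a cartilage matrix protein, had 0 counts in p65 KO, 4 in IKK2 KO and 14 in WT. Sox9 was highest in IKK2 KO and Comp highest in WT. In untreated p65 KO Matn1, Matn3, Comp and Hapln1 were at 0, so its sum beyond Sox9 was Acan, which was at 0 in WT. The markers shared no order of lines, and their part in the result was not tested. Col27a1, a fibrillar chain of developing cartilage, was the one fibrillar gene higher in p65 KO: 2.15 and 2.53 CPM in p65 KO cells, 0.570 and 0.0619 CPM in IKK2 KO, and 0.203 and 0.287 CPM in WT (p65 KO over WT log2 3.20 ± 0.36, adjusted p = 8.6e-11).

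Of 8 basement membrane and network collagens tested, 4 were higher and 4 lower in p65 KO, a split like that of all genes (39.8% and 41.1%), and 2 were higher and 5 lower in IKK2 KO (35.9% and 38.4% of all genes). Col4a1 and Col4a2, the ubiquitous basement membrane chains, start head to head on chromosome 8, where their annotated ends overlap by 22 bases. Col4a1 had 11.4 and 10.9 CPM in p65 KO cells, 43.2 and 44.1 CPM in IKK2 KO, and 0.152 and 0.0821 CPM in WT. Col4a2 had 8.72 and 9.26 CPM in p65 KO cells, 36.0 and 35.9 CPM in IKK2 KO, and 0 and 0.205 CPM in WT. The pair was therefore almost silent in WT, at 5 counts per gene over its libraries, intermediate in p65 KO and highest in IKK2 KO. Over WT the log2 change of Col4a1 was 6.54 ± 0.25 in p65 KO and 8.51 ± 0.17 in IKK2 KO, and that of Col4a2 was 6.24 ± 0.28 in p65 KO and 8.23 ± 0.19 in IKK2 KO (adjusted p from 2.4e-36 to 1.4e-23). With 5 WT counts per gene, these errors are smaller than the counting error. Per kilobase of transcript, Col4a1 over Col4a2 was 1.21 ± 0.09 in p65 KO and 1.18 ± 0.02 in IKK2 KO (SD, n = 2 each), so the ratio of the pair differed by less than the spread between libraries.

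The head-to-head pair on chromosome X did not move together. Col4a6 and Col4a5 lie 1308 bases apart on chromosome X and encode chains of the basement membranes of kidney and smooth muscle. Col4a6 had 29.7 and 31.7 CPM in p65 KO cells, 0 and 0.0619 CPM in IKK2 KO, and 0.406 and 0.287 CPM in WT. Col4a5 had 65.3 and 61.9 CPM in p65 KO cells, 46.1 and 50.1 CPM in IKK2 KO, and 52.1 and 49.99 CPM in WT. Col4a6 was high in p65 KO alone by level (log2 6.47 ± 0.15 over WT, adjusted p = 5.6e-34), while Col4a5 was present in each line and only slightly higher in p65 KO cells (0.32 ± 0.05, adjusted p = 9e-08) and not called in IKK2 KO (−0.09 ± 0.05, adjusted p = 0.14). IKK2 KO held 1 count of Col4a6 against 15 in WT, a ratio of 11.5 in favour of WT with an exact 95% counting interval of 1.76 to 483. Col4a3 and Col4a4, the chains of the glomerular basement membrane, start 71 bases apart head to head on chromosome 1 and were highest in WT. Col4a4 had 0.183 and 0.457 CPM in p65 KO cells, 0.684 and 0.805 CPM in IKK2 KO, and 3.09 and 3.08 CPM in WT; it changed by log2 −3.22 ± 0.29 in p65 KO and by −2.05 ± 0.27 in IKK2 KO. Col4a3, at no more than 2.05 CPM in any untreated library, changed by −3.70 ± 0.47 in p65 KO and −3.52 ± 0.51 in IKK2 KO; it shares exon bases with a transcript on the other strand, and the strand setting of the counting is not given in the sources used here.

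Col8a1 (chr16:57624258-57754737, minus strand), a network chain of vessel walls and of Descemet's membrane in the eye, had 77.6 and 81.1 CPM in p65 KO cells, 128 and 126 CPM in IKK2 KO, and 158 and 158 CPM in WT. It was lower in p65 KO cells (log2 −0.99 ± 0.03, adjusted p = 1.7e-28) and in IKK2 KO cells (−0.32 ± 0.03, adjusted p = 7.9e-12). Col10a1, the network collagen of hypertrophic cartilage, had 0.0913 and 0.0831 CPM in p65 KO cells, 0 and 0 CPM in IKK2 KO, and 3.96 and 3.16 CPM in WT. It was lower in p65 KO by log2 −5.24 ± 0.40 (adjusted p = 3.5e-15), and in IKK2 KO it was at least 39.5-fold lower than in WT on the floor of 3 counts (0 counts against 155). Its exons share 18 bases with Nt5dc1 on the other strand, which had more counts.

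Type VI collagen, the pericellular beaded filament whose 3 main chains join in equal amounts, changed unevenly between chains. Col6a1 had 99.1 and 95.3 CPM in p65 KO cells, 196 and 199.7 CPM in IKK2 KO, and 279 and 285 CPM in WT. Col6a2 had 53.2 and 51.8 CPM in p65 KO cells, 115 and 124 CPM in IKK2 KO, and 103 and 103 CPM in WT. Col6a3 had 31.2 and 30.6 CPM in p65 KO cells, 219.96 and 217 CPM in IKK2 KO, and 719 and 718 CPM in WT. All 3 were lowest in p65 KO with no overlap, and the step was widest for Col6a3. In p65 KO the log2 changes were −1.54 ± 0.03 for Col6a1, −0.97 ± 0.04 for Col6a2 and −4.54 ± 0.03 for Col6a3 (adjusted p = 3e-36, 5.2e-24 and 9e-52). In IKK2 KO they were −0.51 ± 0.03 for Col6a1, 0.22 ± 0.04 for Col6a2 and −1.72 ± 0.03 for Col6a3 (adjusted p = 1.5e-19, 4.1e-06 and 1.7e-40). Col6a1 and Col6a2 are neighbours in the same direction on chromosome 10, 85.2 kb apart, while Col6a3 is on chromosome 1 (chr1:90765923-90843971, minus strand).

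Of the FACIT collagens 4 of 9 were tested, and 3 of these were lower in each knock-out (41.1% of all genes in p65 KO, 38.4% in IKK2 KO). Col12a1 (chr9:79598991-79718831, minus strand), which decorates type I fibrils under tension, had 107 and 105 CPM in p65 KO cells, 11.3 and 12.1 CPM in IKK2 KO, and 276 and 285 CPM in WT. Its lowest line was IKK2 KO (log2 −4.59 ± 0.05, adjusted p = 8.7e-47), below p65 KO (−1.41 ± 0.03, adjusted p = 9.8e-36), which is also the order of Col11a1 and Col5a2. Col16a1, a fibril-linked collagen of skin and cartilage, went the other way, with 35.5 and 33.2 CPM in p65 KO cells, 42.9 and 41.3 CPM in IKK2 KO, and 28.2 and 26.4 CPM in WT. It was higher in p65 KO cells (0.33 ± 0.06, adjusted p = 1.7e-06) and in IKK2 KO cells (0.63 ± 0.06, adjusted p = 7.8e-13). Col9a3 and Col20a1 stayed under 2 CPM in each untreated library and were lower in p65 KO (−2.21 ± 0.54 and −2.32 ± 0.37) and in IKK2 KO (−1.59 ± 0.54 and −1.98 ± 0.38). Col20a1 is uncertain, since it shares 79 exon bases with a more abundant transcript on the same strand.

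Col18a1, the basement membrane multiplexin that yields endostatin, had 4.75 and 4.32 CPM in p65 KO cells, 13.3 and 12.8 CPM in IKK2 KO, and 68.5 and 65.3 CPM in WT. It was lower in p65 KO cells (log2 −3.88 ± 0.08, adjusted p = 4.6e-36) and in IKK2 KO cells (−2.36 ± 0.07, adjusted p = 4.2e-30). Col7a1 (chr9:108953586-108984875, plus strand), which forms the anchoring fibrils that tie skin epithelium to dermis, had 25.9 and 25.2 CPM in p65 KO cells, 244.7 and 239.6 CPM in IKK2 KO, and 45.8 and 39.3 CPM in WT. IKK2 KO exceeded WT 5.73-fold (2.52 ± 0.05 on the log2 scale, adjusted p = 1.2e-26), while p65 KO was lower than WT (−0.73 ± 0.07, adjusted p = 4.2e-10).

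Levels per kilobase of the principal transcript (CPM per kb) put the members on one scale. In untreated p65 KO the order began Col1a2 at 172, Col1a1 at 79.2, Col5a2 at 69.3 and Col5a1 at 33.7 CPM per kb. In untreated IKK2 KO it began Col1a2 at 271, Col1a1 at 255, Col3a1 at 122 and Col6a1 at 48.2 CPM per kb. In untreated WT it began Col1a2 at 256, Col1a1 at 196, Col6a3 at 79.8 and Col5a2 at 73.5 CPM per kb. Col3a1, at rank 3 in IKK2 KO, was at 4.29 CPM per kb in p65 KO.

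Ratios of chains within a library do not depend on library scaling. Col1a1 over Col1a2, whose products join in the type I trimer, was 0.467 and 0.454 in p65 KO, 0.931 and 0.950 in IKK2 KO, and 0.783 and 0.748 in WT (CPM per kb over CPM per kb, untreated). Col5a1 over Col5a2 was 0.505 and 0.468 in p65 KO, 1.07 and 1.09 in IKK2 KO, and 0.622 and 0.590 in WT. For types I and V the p65 KO libraries thus had the lowest ratio and the IKK2 KO libraries the highest. Col6a3 over Col6a1 was 0.143 and 0.146 in p65 KO, 0.512 and 0.496 in IKK2 KO, and 1.17 and 1.15 in WT. Col3a1 over Col5a2 was 0.0616 and 0.0623 in p65 KO, 3.31 and 3.40 in IKK2 KO, and 0.817 and 0.806 in WT. In none of these ratios did the untreated libraries of 1 line overlap those of another. Some ratios also moved with time in TNF: Col6a3 over Col6a1 in WT was 1.04 and 1.03 at 45 min and 1.04 and 1.03 at 90 min, below the untreated libraries. Col3a1 over Col5a2 in IKK2 KO was 3.88 and 3.95 at 45 min and 3.37 and 3.30 at 90 min, so the 45 min libraries lay above the others. The absolute ratio depends on the length used: with all annotated exons, Col1a1 over Col1a2 averaged 0.967 in p65 KO, 1.98 in IKK2 KO and 1.61 in WT, in the same order.

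**Figure D3:**
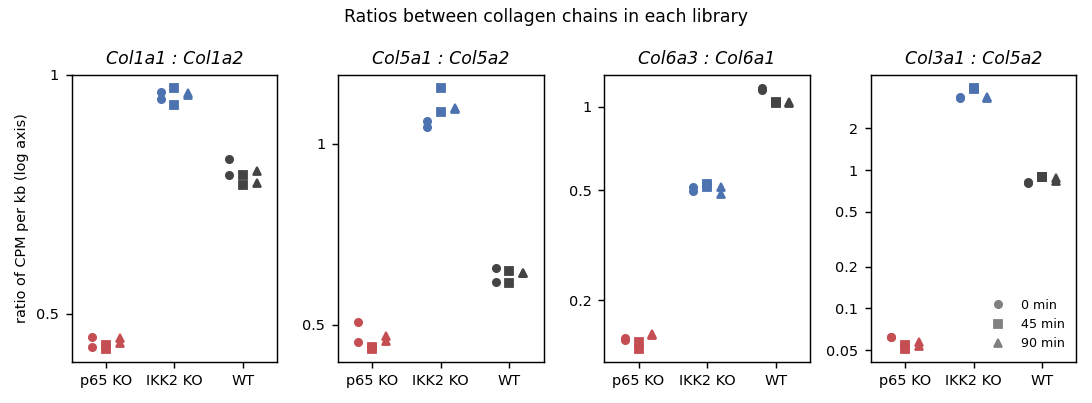
Ratio of CPM per kb between pairs of collagen chains, on log axes, in each library of p65 KO (red), IKK2 KO (blue) and WT (grey); circles, squares and triangles are 0, 45 and 90 min of TNF. The lines lie apart in these ratios, and Col3a1 over Col5a2 in IKK2 KO and Col6a3 over Col6a1 in WT also differ by time; Col6a3 over Col6a1 lies near 0.145 in p65 KO, near 0.504 in IKK2 KO and near 1.16 in WT, as means of the untreated libraries.

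The line differences stood in treated libraries too. At 45 min 27 members differed between p65 KO and WT (80.4% of all genes) and 24 between IKK2 KO and WT (73.8%); at 90 min 26 (79.6%) and 24 (73.2%) did. At 0, 45 and 90 min alike, p65 KO was higher than WT for 6 members and lower for 20, leaving out Col5a2 and Col17a1. Col3a1 in p65 KO was −3.80, −3.99 and −3.93 from WT on the log2 scale at 0, 45 and 90 min, and Col6a3 was −4.54, −4.55 and −4.60. In IKK2 KO Col7a1 was 2.52, 2.69 and 2.59 above WT and Col12a1 was −4.59, −4.88 and −4.43 from it. IKK2 KO was higher than WT at the 3 times for 7 members and lower for 15; the other 6 were Col1a2, Col4a5, Col6a2, Col9a3, Col17a1 and Col27a1. Col5a2 in p65 KO was below WT untreated, above it at 45 min (log2 0.09 ± 0.02, adjusted p = 0.00083) and not called at 90 min (0.03 ± 0.02, adjusted p = 0.29); with protein-coding genes alone it was 0.01 at 45 min (adjusted p = 0.82) and −0.06 at 90 min (adjusted p = 0.028). As a share of all counts the collagen genes made up 0.287% ± 0.005 in untreated p65 KO, 0.485% ± 0.017 in untreated IKK2 KO and 0.580% ± 0.006 in untreated WT (SD, n = 2 each). After TNF the shares lay between 0.303% and 0.305% in p65 KO, 0.480% and 0.496% in IKK2 KO, and 0.577% and 0.581% in WT, as group means. Fibrillar members held 80.0% of collagen counts in untreated p65 KO, 79.3% in untreated IKK2 KO and 69.0% in untreated WT, while type VI members held 6.62%, 10.1% and 19.6% in the same groups.

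TNF changed few collagen genes within 90 min, and of these 1 by 2-fold or more from untreated (Col5a3 in WT, a gene of low level). In p65 KO 1 of 28 tested members changed at 45 min (1.66% of all genes) and 4 at 90 min (6.48%). In IKK2 KO 3 changed at 45 min (8.76%) and 1 at 90 min (4.48%). In WT 4 changed at 45 min (12.2%) and 5 at 90 min (9.32%). From 45 to 90 min, 0 changed in p65 KO (2.73% of all genes), 4 in IKK2 KO (15.7%) and 7 in WT (14.3%). For the count of 0, DESeq2 also gave 0, and 2 members had an unadjusted p under 0.05. With so few calls, nothing particular to collagen genes is read from these counts. Among members at or above 50 CPM in a line the log2 changes from untreated ranged from −0.17 to 0.13 in p65 KO, from −0.24 to 0.25 in IKK2 KO and from −0.12 to 0.23 in WT. Type I collagen was among the flat ones: Col1a1 in WT had 1172 and 1153 CPM untreated, 1208 and 1153 CPM at 45 min, and 1167 and 1118 CPM at 90 min. No TNF comparison called Col1a1 or Col5a1. Leaving out 1 library at a time left 0 to 1 calls in p65 KO at 45 min and at 90 min, and 1 to 3 in WT at 45 min. By the test of the difference between responses, p65 KO differed from WT for 1 member at 45 min (7.08% of all genes) and 3 at 90 min (5.39%), and IKK2 KO differed from WT for 2 at 45 min (4.86%) and 2 at 90 min (2.35%).

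**Figure D4:**
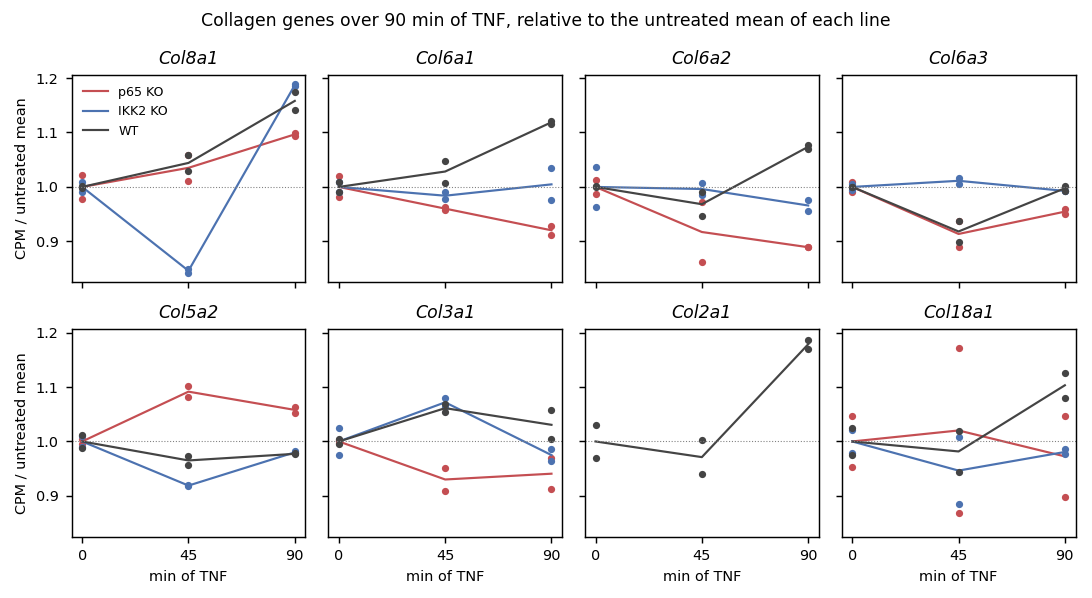
CPM of 8 collagen genes after 0, 45 and 90 min of TNF, divided by the untreated mean of the same line; points are libraries, lines join the means of 2 libraries in p65 KO (red), IKK2 KO (blue) and WT (grey). Col8a1 is higher at 90 min in each line and dips at 45 min in IKK2 KO; Col6a1 and Col6a2 part between WT and p65 KO at 90 min. Col2a1 is drawn for WT alone, since the knock-out lines had at most 0.45 CPM in a library.

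Col8a1 was the one collagen gene called at 90 min in all 3 lines. In p65 KO it had 77.6 and 81.1 CPM untreated, 84.1 and 80.2 CPM at 45 min, and 87.3 and 86.8 CPM at 90 min. In IKK2 KO it had 128 and 126 CPM untreated, 107 and 108 CPM at 45 min, and 150.5 and 151 CPM at 90 min. In WT it had 158 and 158 CPM untreated, 163 and 167 CPM at 45 min, and 181 and 186 CPM at 90 min. The 90 min libraries lay above the untreated ones in each line, and in IKK2 KO the 45 min libraries lay below. At 90 min the log2 change was 0.13 ± 0.04 in p65 KO (adjusted p = 0.014), 0.25 ± 0.03 in IKK2 KO (adjusted p = 4.4e-07) and 0.21 ± 0.03 in WT (adjusted p = 5.3e-07). The call in p65 KO was lost with DESeq2 and without p65 KO untreated library a or either 90 min library (adjusted p up to 0.22), those of IKK2 KO and WT in none. The fall at 45 min in IKK2 KO was −0.24 ± 0.03 (adjusted p = 1.4e-06), and the return to 90 min was 0.49 ± 0.03 (adjusted p = 1.4e-15), the widest TNF-related step of an abundant collagen gene. At 45 min the response in IKK2 KO differed from that in WT by −0.30 ± 0.05 (adjusted p = 5.7e-06), where WT changed by 0.06 ± 0.03 (adjusted p = 0.22). At 90 min neither knock-out's response was called as different from that in WT (p65 KO minus WT −0.08 ± 0.05, adjusted p = 0.41; IKK2 KO minus WT 0.04 ± 0.04, adjusted p = 0.86).

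At 90 min Col6a1 rose in WT, while Col6a1 and Col6a2 fell in p65 KO. In p65 KO Col6a1 had 99.1 and 95.3 CPM untreated, 93.1 and 93.5 CPM at 45 min, and 88.6 and 90.2 CPM at 90 min. In WT Col6a1 had 279 and 285 CPM untreated, 296 and 285 CPM at 45 min, and 317 and 315 CPM at 90 min. Untreated and 90 min libraries did not overlap in either line. The log2 change of Col6a1 at 90 min was −0.12 ± 0.04 in p65 KO (adjusted p = 0.031; lost with DESeq2 and without any of its 4 libraries, adjusted p up to 0.34), 0.01 ± 0.03 in IKK2 KO (adjusted p = 0.97) and 0.16 ± 0.03 in WT (adjusted p = 3e-05). The difference from WT was −0.28 ± 0.05 in p65 KO cells (adjusted p = 1.9e-05) whereas for IKK2 KO it was −0.15 ± 0.04 (adjusted p = 0.032, lost in 7 of 14 alternatives with adjusted p up to 0.37: DESeq2, and without untreated or 90 min library a of either line, untreated library b of IKK2 KO or 90 min library b of WT); the 2 differences share the WT libraries. Col6a2 followed the same signs, with −0.17 ± 0.05 in p65 KO cells (adjusted p = 0.023, lost with DESeq2 and without any of its 4 libraries, adjusted p up to 0.19) and 0.10 ± 0.04 in WT (adjusted p = 0.092), and its responses differed between p65 KO and WT by −0.27 ± 0.06 (adjusted p = 0.0028). In WT Col6a2 was 102.8 and 103 CPM untreated, 102 and 97.4 CPM at 45 min and 111 and 110.2 CPM at 90 min, a rise of 0.15 ± 0.04 from 45 to 90 min (adjusted p = 0.0067, lost with DESeq2 and without 90 min library a or 45 min library b, adjusted p up to 0.12). The mitochondrial share of counts fell with TNF in p65 KO, as given above. Without mitochondrial genes 4 members were again called at 90 min and 1 at 45 min. That step moved the median log2 change of all genes by only −2e-04 at 90 min and 0.001 at 45 min. Little could change through it, and the part of the mitochondrial share in these calls was not tested.

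Col6a3 in WT dipped and came back, with 719 and 718 CPM untreated, 674 and 646 CPM at 45 min, and 720.3 and 713 CPM at 90 min. The change was −0.12 ± 0.02 at 45 min (adjusted p = 0.00018) and 0.12 ± 0.02 from 45 to 90 min (adjusted p = 0.00027), and both calls were made in all 10 alternatives. In IKK2 KO Col6a3 had 219.96 and 217 CPM untreated and 220.0 and 222 CPM at 45 min, and its response differed from that in WT by 0.14 ± 0.04 (adjusted p = 0.019; lost with the compared groups alone and without either untreated IKK2 KO library or 45 min library b of IKK2 KO or WT, adjusted p up to 0.14). Col5a2 behaved otherwise, with a rise in p65 KO and a fall in IKK2 KO at 45 min. In p65 KO it had 461 and 457 CPM untreated, 496 and 506 CPM at 45 min, and 488 and 483 CPM at 90 min. In IKK2 KO it had 238 and 243 CPM untreated, 221 and 220.3 CPM at 45 min, and 236 and 235 CPM at 90 min. The 45 min libraries lay outside the untreated range in each of these lines, above it in p65 KO and below it in IKK2 KO. The log2 change at 45 min was 0.13 ± 0.02 in p65 KO (adjusted p = 0.00094, lost without untreated or 45 min library b, adjusted p up to 0.085), −0.12 ± 0.03 in IKK2 KO (adjusted p = 0.0023, 0.066 without untreated library b) and −0.05 ± 0.02 in WT (adjusted p = 0.19). The response in p65 KO differed from that in WT by 0.18 ± 0.03 at 45 min (adjusted p = 0.00024) and by 0.11 ± 0.03 at 90 min (adjusted p = 0.037, lost in 9 of 14 alternatives, among them each p65 KO library left out, adjusted p up to 0.14). Col5a2 in p65 KO was still higher at 90 min (0.08 ± 0.02, adjusted p = 0.031, lost in 6 of 10 alternatives, among them each library left out, adjusted p up to 0.24), and in IKK2 KO it rose from 45 to 90 min by 0.09 ± 0.03 (adjusted p = 0.016, lost in 6 of 10, among them without either 90 min library or 45 min library b, adjusted p up to 0.094).

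Calls for Col2a1, Col18a1 and Col5a3 came from WT. Col2a1 in WT had 78.6 and 83.5 CPM untreated, 81.2 and 76.2 CPM at 45 min, and 96.2 and 94.8 CPM at 90 min. It rose at 90 min by log2 0.23 ± 0.05 over untreated (adjusted p = 0.00047) and by 0.28 ± 0.05 over 45 min (adjusted p = 4.3e-05), in all 10 alternatives each. Col18a1 in WT had 68.5 and 65.3 CPM untreated, 63.2 and 68.1 CPM at 45 min, and 75.3 and 72.3 CPM at 90 min. Its rise at 90 min was 0.14 ± 0.05 over untreated (adjusted p = 0.04; lost with DESeq2, RLE scaling and without untreated library b or either 90 min library, adjusted p up to 0.48) and 0.17 ± 0.05 over 45 min (adjusted p = 0.0097; lost with DESeq2 and without library a of either time, adjusted p up to 0.25). Col5a3 in WT had 0.254 and 0.451 CPM untreated, 0.396 and 0.524 CPM at 45 min, and 1.14 and 0.837 CPM at 90 min. The 90 min libraries were the highest, 2.70-fold above untreated (1.44 ± 0.38, adjusted p = 0.0085, lost without untreated or 90 min library a, adjusted p up to 0.18) and 2.17-fold above 45 min (1.11 ± 0.38, adjusted p = 0.039; lost with DESeq2, with no filter and without 90 min library a or either 45 min library, adjusted p up to 0.33). The responses of Col5a3 at 90 min differed between IKK2 KO and WT by −1.48 ± 0.40 (adjusted p = 0.035; lost with DESeq2 and without library a of either WT group, either untreated IKK2 KO library or its 90 min library b, adjusted p up to 0.33). In the knock-out lines Col2a1 and Col18a1 had no call on TNF, and the differences of their responses from WT were not called. For Col2a1 this says little, since its few counts in the knock-out lines could not show a change of the size seen in WT.

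At 45 min in WT, 3 fibrillar members rose slightly: Col11a1 by log2 0.16 ± 0.05 (adjusted p = 0.02), Col3a1 by 0.09 ± 0.03 (adjusted p = 0.039) and Col1a2 by 0.08 ± 0.03 (adjusted p = 0.044). These calls were lost in 5, 8 and 7 of 10 alternatives, among them DESeq2 and, for each gene, any library left out, save untreated library b for Col1a2 (adjusted p up to 0.37). In IKK2 KO Col3a1 had 659.8 and 693 CPM untreated, 719.8 and 731 CPM at 45 min, and 667 and 652 CPM at 90 min. Its rise at 45 min was 0.10 ± 0.03 (adjusted p = 0.0085; lost with the compared groups alone and without untreated library a or 45 min library b, adjusted p up to 0.3) and its fall from 45 to 90 min was −0.14 ± 0.03 (adjusted p = 0.00011, lost in none). Col12a1 in IKK2 KO had 11.3 and 12.1 CPM untreated, 9.22 and 9.86 CPM at 45 min, and 13.7 and 12.8 CPM at 90 min. It was lowest at 45 min and rose by 0.47 ± 0.09 to 90 min (adjusted p = 0.00014, lost in none). Col1a2, Col11a1 and Col12a1 had no other call on TNF.

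Genes that modify, secrete, cleave, cross-link, bind or break down collagen were taken as 77 genes on 7 lists, of which 65 were tested. In untreated p65 KO 20 were higher and 38 lower than in WT, where 80.8% of all genes differed. In untreated IKK2 KO 28 were higher and 30 lower, where 74.3% did. In each knock-out the listed genes were called more often than all genes, and this excess was not tested. Calls come more readily for genes with many counts, and the lists were not matched to all genes by level. Their median log2 change was −0.47 in p65 KO and −0.07 in IKK2 KO, against −0.02 and −0.03 over all tested genes. Of 6 cross-linking enzymes tested, 1 was higher and 5 lower in p65 KO (39.8% and 41.1% of all genes), and 1 was higher and 4 lower in IKK2 KO (35.9% and 38.4%). Lox, the lysyl oxidase that cross-links fibrillar collagen, had 5.75 and 5.82 CPM in p65 KO cells, 177 and 181 CPM in IKK2 KO, and 436 and 435 CPM in WT. That is a log2 change of −6.23 ± 0.05 in p65 KO cells (adjusted p = 6.3e-50), and for IKK2 KO it was −1.28 ± 0.03 (adjusted p = 1.1e-32). Loxl2, a relative that acts on type IV collagen, had 0.593 and 0.831 CPM in p65 KO cells, 149 and 152 CPM in IKK2 KO, and 2.08 and 2.75 CPM in WT, with IKK2 KO 5.94 ± 0.07 above WT on the log2 scale (adjusted p = 3e-44). Loxl2 and the pair Col4a1 and Col4a2 were thus highest in IKK2 KO, but p65 KO, which held more Col4a1 than WT, held less Loxl2 (−1.76 ± 0.25, adjusted p = 2.1e-08).

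Of 7 genes of propeptide cleavage tested, 2 were higher and 5 lower in p65 KO, and 4 were higher and 2 lower in IKK2 KO, where 80.8% and 74.3% of all genes were called. Adamts2, which trims the amino ends of types I to III, was at 0.274 and 0.166 CPM in p65 KO cells, 1.6 and 1.3 CPM in IKK2 KO, and 3.50 and 3.94 CPM in WT (p65 KO log2 −4.07 ± 0.30, adjusted p = 2.8e-16). Adamts3, its relative with a preference for type II, had 23 counts in p65 KO and 0 in WT, at least 7.35-fold higher on the floor of 3 counts. Tll1, a BMP1-like procollagen protease, had 3 counts in p65 KO, 1 in IKK2 KO and 488 in WT, ratios of 170.0 (exact 95% counting interval 57.7 to 825) and 373 (66.6 to 14800) in favour of WT. Pcolce2, an enhancer of these proteases, was at 56.6 and 59.6 CPM in IKK2 KO against 4.82 and 5.58 CPM in WT (3.47 ± 0.08, adjusted p = 1.3e-34). Among proline hydroxylases, IKK2 KO was lower for P3h3 (−5.46 ± 0.14) and P4ha3 (−4.78 ± 0.21).

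Further genes with the widest called changes were fibril-associated proteins, receptors and a secretion factor. Thbs2, a matricellular regulator of fibril assembly, was at 312 and 320 CPM in p65 KO cells, 213 and 216 CPM in IKK2 KO, and 5.48 and 5.87 CPM in WT, so both knock-outs lay above WT (log2 5.79 ± 0.05 and 5.23 ± 0.05). Creb3l1, a transcription factor that drives collagen secretion in bone, was higher in p65 KO (3.63 ± 0.07). Among receptors, Itga10 was lower (−4.14 ± 0.26) and Itga2 higher (2.39 ± 0.63, on 23 counts against 4) in p65 KO. Lum and Tnxb were near the floor in IKK2 KO or WT, at 23 counts against 2 and 2 counts against 18 in IKK2 KO against WT. The fold of Lum was 15.0 in favour of IKK2 KO (exact 95% counting interval 3.72 to 132) and that of Tnxb was 6.88 in favour of WT (1.65 to 61.1). Serpinh1, the collagen chaperone, changed by less, with 509.5 and 507 CPM in p65 KO cells, 327 and 324 CPM in IKK2 KO, and 346 and 375 CPM in WT (log2 0.49 ± 0.03 in p65 KO and −0.15 ± 0.03 in IKK2 KO).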

How the data were processed

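RNA-seq libraries from total RNA were made with a directional kit and sequenced as paired reads, per the labels' protocols. Per the submitters' processing notes, FastQC 0.11.8, Trimmomatic, HISAT2, featureCounts from Subread 1.6.2 and edgeR 3.26.4 were used with build GRCm38; no label or header states their settings, the strand option or the annotation used. The table deposited by the authors holds gene counts that are not normalized. Of its values above 0, 31.8% are not whole, so the deposited values were treated as estimated counts made by the authors from aligned reads, per the submitters' processing notes, and were rounded.

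Genes were filtered with filterByExpr, which left 16322 of 55536 and removed 0.0601% of counts. Libraries were scaled by TMM, and edgeR 4.0.16 (R 4.3.3) was fitted with 1 coefficient per group over 18 libraries, with robust quasi-likelihood F-tests of 20 contrasts and a Benjamini-Hochberg adjusted p within each contrast over all tested genes; the threshold was 0.05. Every adjusted p in the text is from this test unless another is named. Residual degrees of freedom were 9 and the common biological coefficient of variation was 1.93%, so small changes pass the test. Differences of response are interaction contrasts. Errors after ± are standard errors unless SD is written. Each standard error was the absolute log2 change over the square root of the F statistic. For many large changes between lines, and where a group held few counts, it understates the counting error. Among such cases are Col2a1, Col4a1, Col4a2, Col4a6, Col10a1, Adamts2 and P4ha3 in their untreated line differences. Col5a3 and Col11a1 in untreated IKK2 KO and Col27a1 in untreated p65 KO, each against WT, are further cases. Lox in p65 KO, Loxl2 and P3h3 in IKK2 KO, and Thbs2 in each knock-out, untreated against WT, are others. CPM per kb used the APPRIS principal transcript of GENCODE M21. Folds against low counts used a floor of 3 counts per group or an exact 95% counting interval, which cover counting error only.

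Genes named with full statistics were the called members with the largest changes in each direction, up to 10, among those at 2 CPM or more in a group, with further members described by role. The collagen members and the lists of machinery genes and cell type markers were chosen with earlier results of these data known. Column names carry a line, a treatment and a library code, which assign each column to its group; no label holds that code, and the names a and b only tell the libraries of a group apart. The script was tested on simulated data. Alternatives were DESeq2 1.42.0, RLE scaling, no filter, the compared groups alone, protein-coding genes alone, each library left out, and, added after seeing the data, no mitochondrial genes and all annotated exons as the length.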

Additional observations from a re-analysis of the deposited data

Results flagged for a closer look

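For 8 pairs of a collagen gene and a time, the response to TNF differed between a knock-out line and WT by the test of the difference itself. In p65 KO the response of Col5a2 exceeded that in WT by 0.18 ± 0.03 (log2, SE) at 45 min (adjusted p = 0.00024) and by 0.11 ± 0.03 at 90 min (adjusted p = 0.037). In p65 KO the responses at 90 min of Col6a1 and Col6a2 lay below those in WT, by −0.28 ± 0.05 (adjusted p = 1.9e-05) and −0.27 ± 0.06 (adjusted p = 0.0028). In IKK2 KO the response of Col8a1 at 45 min lay below that in WT, by −0.30 ± 0.05 (adjusted p = 5.7e-06), and that of Col6a3 lay above it by 0.14 ± 0.04 (adjusted p = 0.019). In IKK2 KO the responses at 90 min of Col6a1 and Col5a3 lay below those in WT, by −0.15 ± 0.04 (adjusted p = 0.032) and −1.48 ± 0.40 (adjusted p = 0.035). Of these, 4 lost their call in some alternatives: Col5a2 at 90 min in 9 of 14, Col6a1 in IKK2 KO in 7, Col5a3 in 6 and Col6a3 in 5. All 8 use the WT libraries of their time, and each response rests on 2 libraries a group.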

How the results depend on the processing

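No paired analysis was possible because the columns carry a library code found in no label, so replicate numbers could not be given to them. Of 3986 recomputed values 3787 kept their side of the threshold or their size, among them 127 uncalled values that changed sign, 115 lost their call, 12 gained one, 71 counts or untested values moved and 1 changed sign between an uncalled and a called value. That one was Col5a2 in p65 KO against WT at 90 min, 0.03 in the reported fit (not called) and −0.056 (adjusted p = 0.028) with protein-coding genes alone. Line differences in untreated cells were stable in number: p65 KO against WT gave 27 to 29 called members over the alternatives, IKK2 KO against WT 24 to 27, and IKK2 KO against p65 KO 20 to 21. In treated cells p65 KO against WT gave 26 to 31 at 45 min and 26 to 28 at 90 min. For IKK2 KO against WT the range was 22 to 25 at each time. Counts of TNF calls were less so; of 37 calls, 16 were made in every alternative. With DESeq2 the count was 0 against 4 for p65 KO at 90 min, 1 against 4 for WT at 45 min, 4 against 7 for WT between 45 and 90 min, and 0 against 2 for the difference between IKK2 KO and WT at 90 min. WT at 45 min gave 2 with RLE scaling, with no filter and with the compared groups alone. IKK2 KO at 90 min gave 2 against 1 with no filter, and the difference between IKK2 KO and WT at 45 min gave 1 against 2 with the compared groups alone. With 1 library left out, whose group's other library is then assumed to vary like the other groups, the count ranged from 0 to 1 for p65 KO at 45 min, 0 to 1 for p65 KO at 90 min, 1 to 2 for IKK2 KO at 90 min, 1 to 3 for WT at 45 min, 3 to 4 for WT at 90 min and 4 to 7 for WT between the times. It ranged from 1 to 3 for the difference between p65 KO and WT at 45 min, 1 to 3 for that between IKK2 KO and WT at 45 min and 0 to 2 for that at 90 min. The cause of these changes was not tested. No alternative scaling moved the median of all genes by 0.1 or more on the log2 scale. The widest shift was −0.091, for untreated p65 KO against WT with protein-coding genes alone. That is about the size of the called change of Col5a2 in untreated p65 KO, so small line differences depend on the scaling. Members at a few counts, such as Col5a3 in WT, are limited by depth.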

Other observations

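Some genes that act on collagen changed with TNF, in counts mostly near the share of all genes called. Of the 65 tested, 1 fell in p65 KO at 45 min (1.66% of all genes called) and 4 fell at 90 min (6.48%). In IKK2 KO 2 rose and 4 fell at 45 min (8.76%), 5 rose at 90 min (4.48%) and 10 rose from 45 to 90 min (15.7%). In WT 2 rose and 9 fell at 45 min (12.2%), 5 rose and 2 fell at 90 min (9.32%), and 15 rose from 45 to 90 min (14.3%). At 45 min in WT, Tll1 fell by log2 −1.13 ± 0.12 (adjusted p = 3.4e-10) and Adgrg1 by −0.98 ± 0.20 (adjusted p = 0.00038). From 45 to 90 min they rose by 0.72 ± 0.13 and 1.19 ± 0.20. Mmp13 rose in WT at 90 min (2.48 ± 0.64, adjusted p = 0.0068), and Itga2 rose in WT from 45 to 90 min (3.56 ± 0.93, adjusted p = 0.0055). Mmp13 and Itga2 held 4 counts each in untreated WT. Loxl4, a lysyl oxidase relative, was at 50.7 and 49.9 CPM in p65 KO at 45 min against 51.2 and 53.6 CPM untreated, and at 90.2 and 92.1 CPM in WT at 45 min against 65.3 and 62.7 CPM untreated. The WT response was 0.51 ± 0.04 on the log2 scale (adjusted p = 6.3e-14), and the responses in p65 KO and IKK2 KO lay −0.57 ± 0.06 and −0.59 ± 0.07 from it (adjusted p = 6.5e-10 and 6.8e-09; both use the WT libraries). At 90 min Loxl4 was at 51.5 and 52.9 CPM in p65 KO cells, 52.9 and 51.0 CPM in IKK2 KO cells, and 96.4 and 96.2 CPM in WT. By then it had risen in IKK2 KO too (0.28 ± 0.05 over untreated, adjusted p = 1e-04), and its response lay −0.60 ± 0.06 from that in WT for p65 KO (adjusted p = 1.8e-10), whereas the gap for IKK2 KO was −0.31 ± 0.06 (adjusted p = 0.002). Thbs1, a matricellular protein that activates latent TGF-β, was at 1785 and 1781 CPM in IKK2 KO at 45 min against 2896 and 2886 CPM untreated, and at 1463 and 1443 CPM in WT at 45 min against 2107 and 2156 CPM untreated. It fell by 0.70 ± 0.02 on the log2 scale in IKK2 KO, it fell by 0.55 ± 0.02 in WT, and in p65 KO it was 0.04 ± 0.02 from untreated (adjusted p = 0.5), a response 0.60 ± 0.03 above that in WT (adjusted p = 1.2e-17). At 90 min Thbs1 was at 1141 and 1136 CPM in p65 KO cells, 3065 and 2980.0 CPM in IKK2 KO cells, and 1740.1 and 1663 CPM in WT. WT was still below untreated (−0.32 ± 0.02, adjusted p = 2.2e-14), and the responses in p65 KO and IKK2 KO lay above it by 0.26 ± 0.03 (adjusted p = 4.2e-07) and 0.39 ± 0.03 (adjusted p = 2.2e-11).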
